A study of Mus musculus with 59 samples.

Results

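Binding of the repressor BCL6 and of the nuclear receptors PPARα and PPARδ was examined around 7 genes of cholesterol synthesis and uptake in mouse liver, *Srebf2*, *Scap*, *Insig1*, *Insig2*, *Hmgcs1*, *Sqle* and *Scarb1*, of 21774 protein-coding RefSeq genes. A ChIP-seq peak was assigned to a gene when its center lay inside the gene or when the nearest protein-coding transcription start site (TSS), within 100 kb, belonged to it. Peaks whose centers lay within 200 bp of each other were joined into a binding site. The 7 genes held 63 of the 38462 sites obtained from the C57BL/6 livers.

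All livers came from male mice of the C57BL/6 strain, whose age the labels do not give. Wild-type livers were taken from ad lib fed or overnight fasted animals, and each of the 6 combinations of factor (BCL6, PPARα or PPARδ) and feeding state was represented by 3 livers. A seventh group of 3 fed livers, from *Bcl6* fl/fl mice that carry loxP sites in *Bcl6* but no Cre, was probed for BCL6 alone and is called floxed here. Each group of 3 was deposited as 1 list of called peaks on mm10, with positions only, so no group had a value per animal and no test between groups was possible. The 7 lists, from 21 of the 59 samples of the series, held between 2399 (PPARδ, fasted) and 29085 peaks (PPARα, fasted). A site called in the fed list only is one at which the fasted list holds no peak, which does not show that the factor was absent. Sequencing depth was not given in the lists, and the intervals below are exact binomial (Clopper-Pearson) 95% intervals that cover counting error only. Neighboring sites of 1 gene are not independent. As a check of the tissue, the hepatocyte genes *Alb*, *Ttr*, *Apoa1* and *Tat* held 11, 9, 17 and 8 sites and *Serpina1a* held 3, whereas *Ckm*, *Myh6* and *Neurod1*, markers of muscle, heart and neurons, held none, *Ins2* of pancreatic islets held 1, and the neuronal gene *Syt1* held 5.

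Hepatocytes adjust cholesterol by feedback. SREBP2, the product of *Srebf2*, is a transcription factor kept in the endoplasmic reticulum in complex with SCAP, its escort protein. When sterols are low, SCAP carries it to the Golgi, where it is cleaved and released to induce genes of synthesis and uptake. When sterols are high, INSIG1 and INSIG2 retain the complex. HMGCS1 makes the HMG-CoA from which mevalonate is formed, SQLE oxidizes squalene ahead of the formation of the sterol rings, and SR-BI, encoded by *Scarb1*, takes up cholesterol esters from high-density lipoprotein. BCL6 is a zinc finger repressor, and the PPARs bind DNA together with RXR at direct repeats of AGGTCA with 1 base between them (DR1).

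To show the DNA on which the comparison rests, the window of 200 bases around the center of the site called in the most lists is given for each gene (the one nearest to a TSS where several tied, and none that overlaps an exon), and after these the 1 site at which BCL6 was called without either PPAR. All are from the plus strand of GRCm38 (mm10), 5′ to 3′, as held by RefSeq. Capitals mark matches to DR1 with up to 2 mismatches or to the BCL6 element TTCCTAGAA with up to 1 mismatch, on either strand. The sterol regulatory element TCACNCCAC matched in none of these windows.
Srebf2, intron 10, chr15:82183714-82183913: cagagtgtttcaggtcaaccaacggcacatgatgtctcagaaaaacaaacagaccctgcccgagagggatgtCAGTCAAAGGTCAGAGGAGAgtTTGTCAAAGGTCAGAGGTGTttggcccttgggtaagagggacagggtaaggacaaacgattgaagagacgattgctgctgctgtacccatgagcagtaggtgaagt
Scap, intron 1, chr9:110343792-110343991: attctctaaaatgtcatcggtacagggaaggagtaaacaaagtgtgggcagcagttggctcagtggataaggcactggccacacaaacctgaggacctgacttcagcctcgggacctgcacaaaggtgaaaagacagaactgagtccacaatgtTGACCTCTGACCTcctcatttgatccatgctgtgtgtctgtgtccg
Insig1, upstream, chr5:28004245-28004444: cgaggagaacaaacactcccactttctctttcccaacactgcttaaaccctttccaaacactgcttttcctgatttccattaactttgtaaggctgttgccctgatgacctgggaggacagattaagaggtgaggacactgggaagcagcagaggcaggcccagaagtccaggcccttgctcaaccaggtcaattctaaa
Insig2, upstream, chr1:121335938-121336137: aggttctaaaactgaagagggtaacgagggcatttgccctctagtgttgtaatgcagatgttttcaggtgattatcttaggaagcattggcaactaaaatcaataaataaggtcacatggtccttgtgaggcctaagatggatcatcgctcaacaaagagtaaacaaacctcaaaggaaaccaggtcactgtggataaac
Hmgcs1, downstream, chr13:119716181-119716380: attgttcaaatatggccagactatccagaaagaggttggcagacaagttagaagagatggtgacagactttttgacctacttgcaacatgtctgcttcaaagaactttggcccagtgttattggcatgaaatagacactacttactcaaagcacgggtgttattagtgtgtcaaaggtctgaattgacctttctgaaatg
Sqle, upstream, chr15:59278924-59279123: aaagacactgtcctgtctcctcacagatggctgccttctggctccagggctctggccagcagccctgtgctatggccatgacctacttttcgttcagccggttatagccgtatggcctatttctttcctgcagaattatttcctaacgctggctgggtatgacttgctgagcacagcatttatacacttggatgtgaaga
Scarb1, intron 1, chr5:125330255-125330454: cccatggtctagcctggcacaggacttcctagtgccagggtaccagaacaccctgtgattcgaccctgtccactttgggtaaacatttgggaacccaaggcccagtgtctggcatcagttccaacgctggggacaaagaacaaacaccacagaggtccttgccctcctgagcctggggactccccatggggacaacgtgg
Insig1, upstream, BCL6 without a PPAR, chr5:28037671-28037870: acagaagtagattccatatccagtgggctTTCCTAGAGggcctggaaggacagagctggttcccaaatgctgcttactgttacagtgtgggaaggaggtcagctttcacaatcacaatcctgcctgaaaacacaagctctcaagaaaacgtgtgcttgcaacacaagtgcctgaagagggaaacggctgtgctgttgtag

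The 4 windows of *Srebf2*, *Insig1* (the first listed), *Insig2* and *Hmgcs1* come from the 4 sites at which all 3 factors were called in both feeding states, 6.35% of the 63 (interval 1.76 to 15.5%) beside 1.76% of all sites. The *Srebf2* window held 4 DR1 matches, each with 2 mismatches, as 2 overlapping pairs at bases 73 to 92 and 95 to 114. The *Scap* window held a DR1 without a mismatch on the minus strand, at bases 155 to 167 (TGACCTCTGACCT as read on the plus strand). The BCL6 site of *Insig1* without a PPAR held TTCCTAGAG, 1 mismatch from the BCL6 element. In the other 5 windows neither sequence was found with these limits.

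All 7 genes carried sites of all 3 factors, but the genes were chosen with earlier results of these data known. The comparisons with all genes that follow are descriptions and no test of the group. At least 1 BCL6 site was found at 30.0% of all protein-coding genes, a PPARα site at 48.2%, a PPARδ site at 20.5%, a site shared by BCL6 and PPARα at 25.1%, and a site shared by all 3 factors at 12.5%. Each of the 7 genes had a site of each of these 5 kinds, with the feeding states pooled. At *Scap*, the only site with all 3 factors had BCL6 in fasted liver only and PPARδ in fed liver only. The median over the 7 was 8 sites per gene, against 1 over all genes and 2 over the genes with a site. By factor the medians were 4 BCL6, 8 PPARα and 3 PPARδ sites. Over all genes the median was 0 for each factor, and over the genes with a site of that factor it was 2, 2 and 1. The stretches assigned to the 7 genes add up to 733 kb and carried 8.59 sites per 100 kb, against 1.92 over all stretches assigned to a gene and a median of 3.57 over the genes with a site.

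*Scarb1* held the most sites of the 7, with 19, followed by *Insig1* with 12, *Insig2* with 9, *Scap* with 8, *Hmgcs1* with 7, *Srebf2* with 5 and *Sqle* with 3. Of all genes, 0.455% had at least as many sites as *Scarb1*, 1.88% at least as many as *Insig1* and 22.1% at least as many as *Sqle*. Scaled to the length of DNA assigned to each gene, the order changed. Per 100 kb, *Scarb1* had 16.8 sites, *Hmgcs1* 12.7, *Scap* 12.1, *Insig1* 8.11, *Srebf2* 7.46, *Insig2* 5.84 and *Sqle* 2.31, so *Sqle* stayed last, and the short stretches of *Hmgcs1* and *Scap* (55 and 66 kb) moved ahead of those of *Insig1* and *Insig2* (148 and 154 kb).

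**Figure D1:**
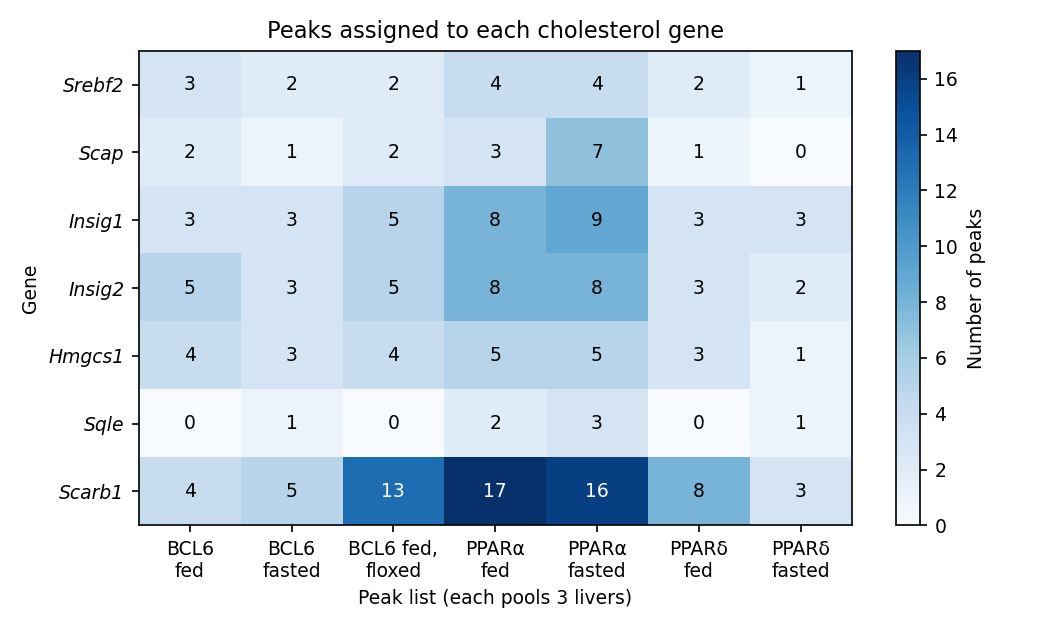
Number of peaks assigned to each of the 7 genes (rows) in each of the 7 lists (columns), each list pooling 3 livers. Darker blue stands for more peaks. *Scarb1* has 17 PPARα peaks in fed liver and 13 BCL6 peaks in floxed fed liver against 4 in C57BL/6 fed liver, and *Sqle* has no BCL6 peak in either fed list.

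With fasting, BCL6 peaks at the 7 genes went from 21 to 18, a change of -14.3%, while the whole BCL6 list went from 15642 to 9613, or -38.5%. PPARα peaks went from 47 to 52 (10.6%), and the whole list from 21410 to 29085 (35.8%). PPARδ peaks went from 20 to 11 (-45.0%), and the whole list from 7328 to 2399 (-67.3%). For each factor the count at the 7 genes moved in the direction of the whole list and by a smaller percentage, but alternatives narrowed or reversed this for BCL6 and PPARδ. With the floxed list as the fed list, BCL6 peaks went from 31 to 18 (-41.9%), beside -44.9% for the whole lists. The next settings restrict the peaks at the 7 genes only, while the whole-list figures still count all peaks of a list. With a reach of 20 kb the floxed comparison gave 23 to 12 (-47.8%). With peaks counted only inside the genes, PPARδ peaks went from 10 to 3 (-70.0%), a larger percentage than that of the whole list, and BCL6 peaks from the floxed fed list from 18 to 9 (-50.0%). With 1 list per state, the difference between these percentages could not be tested.

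Classified by state, 9 of the 27 BCL6 sites (33.3%, interval 16.5 to 54.0%) were called in fed liver only, 12 (44.4%, 25.5 to 64.7%) in both states and 6 (22.2%, 8.62 to 42.3%) in fasted liver only. Over all BCL6 sites these shares were 45.3%, 43.6% and 11.0%, each within the interval at the 7 genes. With the floxed list as the fed BCL6 list, fed-only sites were 18 of 36 (50.0%, 32.9 to 67.1%), against 50.2% of all BCL6 sites classified in that way, with 13 in both states and 5 in fasted liver only. Of the 59 PPARα sites, 7 (11.9%, 4.91 to 22.9%) were called in fed liver only, 40 (67.8%, 54.4 to 79.4%) in both states and 12 (20.3%, 11.0 to 32.8%) in fasted liver only, against 12.8%, 51.3% and 35.8% of all PPARα sites. The interval for sites in both states lay above the share over all PPARα sites, and that for fasted-only sites lay below it. These intervals treat sites of 1 gene as independent, and *Scarb1* alone held 15 of the 40 sites called in both states. Without *Scarb1*, chosen for omission after its count was seen, 25 of 41 PPARα sites (61.0%, 44.5 to 75.8%) were in both states and 11 of 41 (26.8%, 14.2 to 42.9%) in fasted liver only, and both intervals then included the share over all sites. Of the 22 PPARδ sites, 11 (50.0%, 28.2 to 71.8%) were called in fed liver only, 9 (40.9%, 20.7 to 63.6%) in both and 2 (9.09%, 1.12 to 29.2%) in fasted liver only. The corresponding shares of all PPARδ sites were 70.7%, 18.7% and 10.6%. The interval for sites in both states lay above 18.7%, again with sites of 1 gene treated as independent. Without *Scarb1* the share in both states was 6 of 14 (42.9%, 17.7 to 71.1%), an interval that includes 18.7%. With sites counted only inside the genes, 7 PPARδ sites were called in fed liver only, 3 in both states and 0 in fasted liver only.

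**Figure D2:**
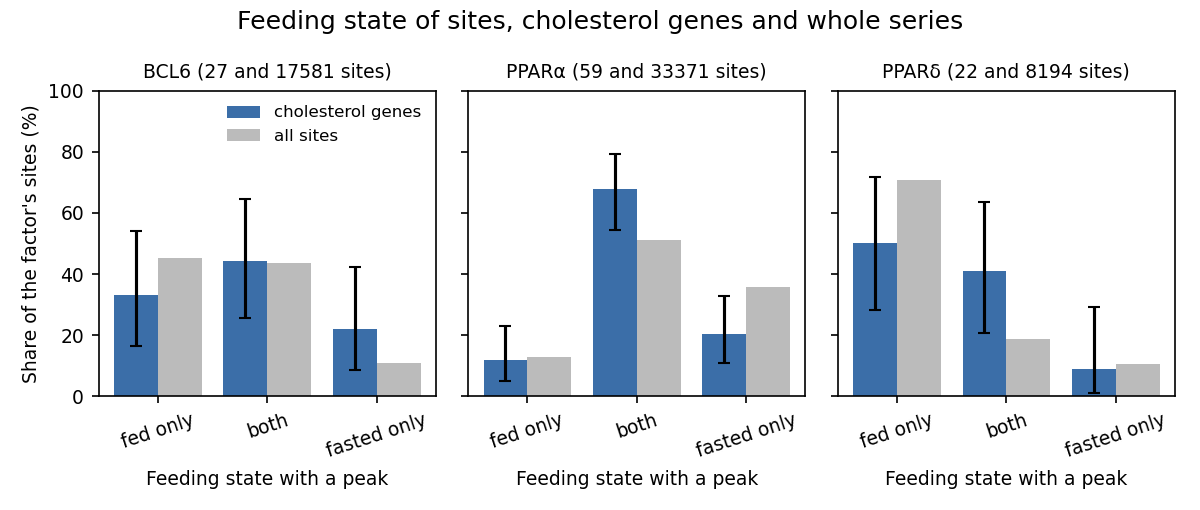
Share of each factor's sites (percent) called in fed liver only, in both states or in fasted liver only, at the 7 genes (blue, with exact binomial 95% intervals) and over all sites of the series (gray). PPARα sites in both states make up 67.8% at the 7 genes against 51.3% of all, and PPARδ sites in both states 40.9% against 18.7%.

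Factors were counted at a site when called there in either feeding state, so factors at 1 site need not share a state. PPARα was called at 26 of the 27 BCL6 sites (96.3%, 81.0 to 99.9%), against 77.5% of all BCL6 sites. PPARδ was called at 15 of the 27 (55.6%, 35.3 to 74.5%), against 26.9%. Without *Scarb1* these were 19 of 20 (interval 75.1 to 99.9%), a range that includes 77.5%, and 10 of 20 (50.0%, 27.2 to 72.8%). In the other direction, 44.1% of the 59 PPARα sites (31.2 to 57.6%) carried BCL6, against 40.9% of all PPARα sites. All 3 factors were called, each in either state, at 15 of the 63 sites (23.8%, 14.0 to 36.2%), against 12.1% of all sites. Without *Scarb1* this was 10 of 44 (22.7%, 11.5 to 37.8%), an interval that includes 12.1%. At the *Scap* site at 10536 bp and the *Scarb1* site at 17782 bp, BCL6 was fasted only and PPARδ fed only. PPARα alone was called at 29 sites (46.0%), close to the 45.3% of all sites, and BCL6 with PPARα but not PPARδ at 11 (17.5%, 9.05 to 29.1%, against 23.4%). PPARα with PPARδ but not BCL6 was called at 4 sites (6.35%, against 6.03%), PPARδ alone at 3 (4.76%, against 2.97%) and BCL6 alone at 1 (1.59%, against 10.0%), and no site had BCL6 with PPARδ but not PPARα (0.224% of all sites). At the 26 sites shared by BCL6 and PPARα, the nearest centers of the 2 factors lay a median of 12 bp apart (range 1 to 168 bp), and over all 13633 shared sites a median of 14 bp.

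The 26 shared sites were then classified by the state of both factors. At 11 of them both factors were called in both states. At 6, BCL6 was called in fed liver only while PPARα was called in both states, and at another 6 BCL6 was called in fasted liver only while PPARα was called in both states. The combination of fed-only BCL6 with fasted-only PPARα was found at 1 site, in intron 1 of *Scap*, where the floxed fed list held no BCL6 peak. That of fasted-only BCL6 with fed-only PPARα was found at none. Over all shared sites, 5.84% had fed-only BCL6 with fasted-only PPARα, 25.1% had fed-only BCL6 with PPARα in both states (23.1% here), 7.22% had fasted-only BCL6 with PPARα in both states, and 44.0% had both factors in both states. The share with fasted-only BCL6 at sites with PPARα in both states was 23.1% here (8.97 to 43.6%), and 3 of 19 (15.8%, 3.38 to 39.6%) without *Scarb1*. The 3 such sites at *Scarb1* each had a BCL6 peak in floxed fed liver, so they were fasted only by the C57BL/6 lists alone.

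**Figure D3:**
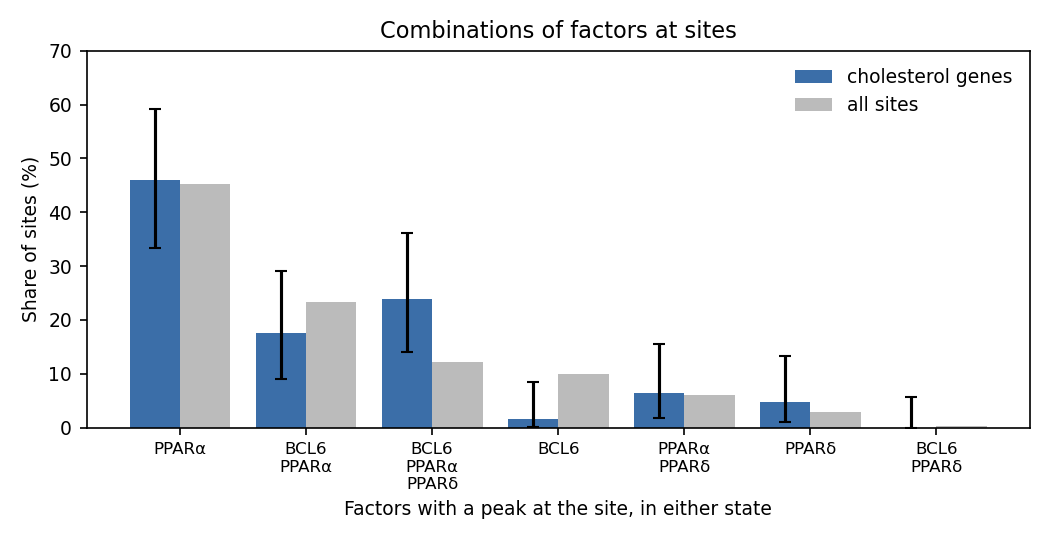
Share of sites (percent) with each combination of factors, in either feeding state, at the 7 genes (blue, 63 sites, with exact binomial 95% intervals) and over all 38462 sites (gray). Sites with all 3 factors make up 23.8% against 12.1%, and sites with BCL6 alone 1.59% against 10.0%.

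The sites lay mostly away from promoters, as did those of the whole series. Of the 63, 4 (6.35%, 1.76 to 15.5%) were within 1000 bp upstream to 100 bp downstream of a TSS, against 13.5% of all sites. Of these 4, 2 were at *Scap*, 1 of them at the start of a predicted transcript, and 2 at *Insig2*. The median distance to the nearest TSS was 16373 bp, against 10547 bp over the 33495 sites with a TSS within 100 kb. By the longest curated transcript of each gene, 25 sites were in introns, 1 in a coding exon, 2 in a 5′ UTR exon, 1 in a 3′ UTR exon, 1 upstream of that transcript but within the gene, and 33 outside the gene. Distances below are to the nearest TSS of a curated RefSeq transcript.

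**Figure D4:**
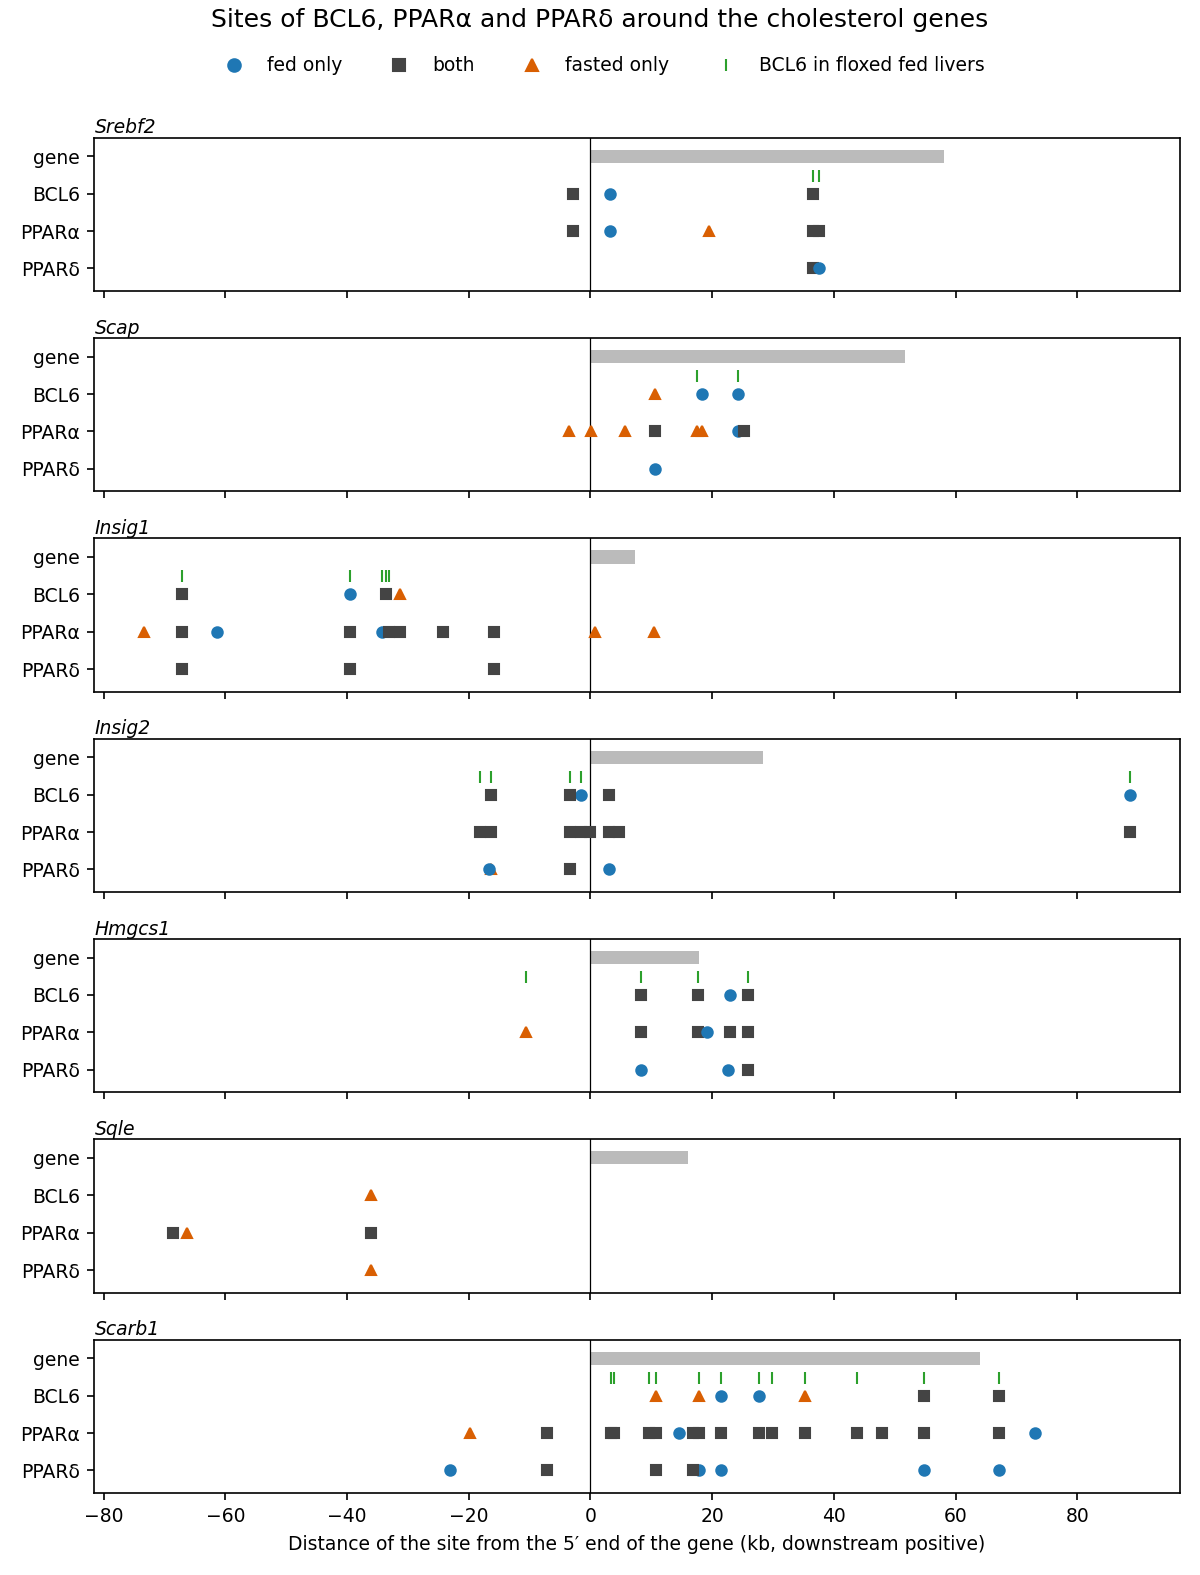
Position of each site relative to the 5′ end of its gene (kb, downstream positive), one panel per gene, with rows for BCL6, PPARα and PPARδ and the extent of the gene as a gray bar. Blue circles are sites called in fed liver only, dark squares in both states and orange triangles in fasted liver only, and green ticks mark sites with a BCL6 peak in floxed fed liver. *Scarb1* shows a run of PPARα squares along its first intron, and *Insig1* a group of sites between 15846 and 73388 bp upstream.

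*Srebf2* (gene 20788, chr15:82147269-82205379, plus strand) held 3 BCL6 and 4 PPARα peaks in fed liver and 2 and 4 in fasted liver. Its PPARδ peaks were 2 in fed and 1 in fasted liver. A site 2909 bp upstream carried BCL6 and PPARα in both states. Within intron 1, a site 3150 bp downstream of the TSS carried both factors in fed liver only, and another at 19529 bp carried PPARα in fasted liver only. The site with all 3 factors in both states lay in intron 10, 36545 bp downstream (chr15:82183678-82183945), and the other site of intron 10, at 37544 bp, carried PPARα in both states and PPARδ in fed liver only. Both intron 10 sites were nearer to the TSS of *Shisa8* (29001 and 28002 bp) than to that of *Srebf2*, and were counted for *Srebf2* because they lie inside it. By the nearest TSS alone, *Srebf2* would keep 3 sites.

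*Scap* (gene 235623, chr9:110333288-110384949, plus strand), the escort of SREBP2, was the gene with the largest gain in PPARα peaks with fasting, from 3 to 7. The 5 sites with PPARα in fasted liver only included 1 centered 2 bp downstream of a TSS, in the 5′ UTR, and others 3493 bp upstream and 5543, 17489 and 18227 bp downstream, in intron 1. At the last of these, BCL6 was called in fed liver only, and the floxed fed list held no BCL6 peak there. BCL6 peaks at *Scap* were 2 in fed and 1 in fasted liver, each at a different site. The site with the perfect DR1 (intron 1, 10536 bp downstream, and 294 bp upstream of the TSS of a predicted transcript) carried PPARα in both states, BCL6 in fasted liver only and PPARδ in fed liver only. In intron 2, a site at 24140 bp carried BCL6 and PPARα in fed liver only, and a site at 25132 bp carried PPARα in both states.

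*Insig1* (gene 231070, chr5:28071412-28078662, plus strand) held 3 BCL6 peaks in fed and 3 in fasted liver, 8 and 9 PPARα peaks, and 3 and 3 PPARδ peaks. These totals were nearly level between the states, although single sites were not. Of its 12 sites, 10 lay upstream, between 15846 and 73388 bp from the TSS. The site 67067 bp upstream carried all 3 factors in both states, and the one 39497 bp upstream carried PPARα and PPARδ in both states and BCL6 in fed liver only. Between 34175 and 31211 bp upstream, 4 sites followed each other with PPARα in fed liver only, BCL6 alone in both states, PPARα in both states, and PPARα in both states with BCL6 in fasted liver only. At 15846 bp, PPARα and PPARδ were called in both states without BCL6. Near the gene itself, the peaks were of PPARα in fasted liver only, 712 bp downstream of the TSS in intron 1 and 10530 bp downstream, beyond the end of the gene. With the reach of a TSS set to 20 kb in place of 100 kb, 3 sites of *Insig1* would remain.

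*Insig2* (gene 72999, chr1:121304353-121332662, minus strand) has curated transcripts that start at 121332589, 121328024 and 121327678. All 8 of its PPARα sites were called in both states. Of these, 2 sat at start sites, 101 bp downstream of the TSS in the 5′ UTR and 106 bp upstream of the most upstream curated TSS, and neither carried BCL6 or PPARδ. BCL6 was called in 5 of the 8 in fed liver and in 3 of them in fasted liver, and those 3 were among the 5. The site 3449 bp upstream carried all 3 factors in both states. At 1575 bp upstream of the downstream start, BCL6 and PPARα were called in both states and PPARδ in fed liver only, and at 16446 bp upstream BCL6 and PPARα in both states and PPARδ in fasted liver only. A PPARδ site without other factors, in fed liver only, lay at 16718 bp upstream, just beyond the joining distance from the latter, so that the PPARδ centers of the 2 states fell on separate sites there. When centers up to 400 bp apart were joined, 1 fasted-only PPARδ site remained over all 7 genes in place of 2.

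*Hmgcs1* (gene 208715, chr13:119690351-119708260, plus strand), the cytosolic synthase of the pathway, held 4 BCL6 peaks in fed and 3 in fasted liver, 5 and 5 PPARα peaks, and 3 and 1 PPARδ peaks. No site lay within 5000 bp of its TSS. A site in intron 2, 8246 bp downstream, and a site in the 3′ UTR, 17747 bp downstream, carried BCL6 and PPARα in both states, the first with PPARδ in fed liver only. The site with all 3 factors in both states lay 25930 bp downstream of the TSS, inside the neighboring gene *Nim1k* but nearer to the TSS of *Hmgcs1*, as did 2 further sites at 22604 and 22997 bp. PPARα alone was called 10504 bp upstream in fasted liver only and 19222 bp downstream in fed liver only.

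*Sqle* (gene 20775, chr15:59315092-59331193, plus strand) had the fewest sites, all upstream, at 36068, 66323 and 68620 bp. It was the only one of the 7 without a BCL6 peak in fed liver, in either the C57BL/6 or the floxed list, and without a PPARδ peak in fed liver. At 36068 bp upstream, BCL6 and PPARδ were called in fasted liver only, at a site with PPARα in both states. PPARα peaks numbered 2 in fed and 3 in fasted liver. With a reach of 20 kb the gene would have no site.

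*Scarb1* (gene 20778, chr5:125277087-125341094, minus strand), the lipoprotein receptor, held 17 PPARα peaks in fed and 16 in fasted liver, 15 of its 18 PPARα sites being called in both states. Of its 19 sites, 11 lay in intron 1, between 3342 and 35344 bp downstream of the TSS, and PPARα was called at all 11, in both states at 10. PPARδ peaks went from 8 in fed to 3 in fasted liver, at 8 sites. BCL6 peaks were 4 in fed and 5 in fasted liver, and only 2 of its 7 BCL6 sites, 54828 bp downstream in intron 9 and 67101 bp downstream, beyond the end of the gene, were called in both. In intron 1, BCL6 was called in fasted liver only at 10739, 17782 and 35344 bp and in fed liver only at 21494 and 27631 bp, at sites with PPARα in both states. The sites 7207 bp upstream and 16933 bp downstream carried PPARα and PPARδ in both states without BCL6 in the C57BL/6 lists.

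The floxed fed livers gave a second view of BCL6 in the fed state. Of the 31 floxed BCL6 peaks at the 7 genes, 16 lay within 200 bp of a fed C57BL/6 BCL6 peak and 3 within 200 bp of a fasted one only, all 3 at *Scarb1*. The other 12 (38.7%) had no C57BL/6 BCL6 peak, against 32.3% of all floxed peaks, and 11 of these 12 lay at a C57BL/6 PPARα peak, against 63.1% of such peaks in the whole list. From the other side, 16 of the 21 fed BCL6 sites at the 7 genes had a floxed peak (76.2%), against 69.6% of all. The gap was widest at *Scarb1*, with 13 floxed against 4 C57BL/6 peaks in fed liver. All 4 C57BL/6 peaks had a floxed counterpart, and the 3 intron 1 sites that the C57BL/6 lists gave as fasted only each had a floxed fed peak. At *Insig1* the lists held 5 and 3 peaks, at *Srebf2* 2 and 3, and at *Scap*, *Insig2*, *Hmgcs1* and *Sqle* equal numbers. The floxed and C57BL/6 lists differ in genotype and were called separately, and these cannot be told apart here.

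In the windows of 200 bp around the 63 sites, DR1 with up to 2 mismatches was found at 9 (14.3%, 6.75 to 25.4%), against 13.5% of all sites. It was present at 3 of the 15 sites with all 3 factors beside 18.9% of all such sites. The BCL6 element with up to 1 mismatch was found at 2 sites (3.17%, 0.387 to 11.0%), against 9.84% of all sites, and at 1 of the 27 BCL6 sites (3.70%), against 15.0% of all BCL6 sites. The 1 other match was 73108 bp downstream of the *Scarb1* TSS, where PPARα alone was called in fed liver only. TGTTTAC, bound by FOXA proteins, was found at 7 sites (11.1%, against 7.37%), and TTGCNNAA, bound by C/EBP proteins, at 12 (19.0%, against 19.8%). The sterol regulatory element TCACNCCAC was found at none of the 63 sites, which allows a share of up to 5.69% by the exact interval, and at 0.806% of all sites. A match says only that these letters occur in the window.

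Of 37 other genes of cholesterol metabolism, 31 (83.8%) held at least 1 site, 19 (51.4%) a BCL6 site, 29 (78.4%) a PPARα site, 17 (45.9%) a PPARδ site and 11 (29.7%) a site with all 3 factors. Over all protein-coding genes these shares were 51.5%, 30.0%, 48.2%, 20.5% and 12.5%. The median over the 37 genes was 2 sites per gene. Among the 18 enzymes of synthesis, 9 had BCL6, 13 PPARα and 5 PPARδ, and 4 a site with all 3. Among the 9 genes of uptake and trafficking the counts were 5, 7, 6 and 2, and among the 7 of efflux and esterification 5, 7, 5 and 5. Of the 3 genes of SREBP processing, none had a BCL6 site in the C57BL/6 lists, although 2 held floxed BCL6 peaks (2 and 1), 2 had PPARα and 1 had PPARδ. *Abca1*, the exporter of cholesterol to apolipoprotein A-I, held the most, with 25 sites, followed by *Npc1*, which moves cholesterol out of lysosomes, with 13, and a pair of genes with 10 each. *Acat2*, *Pmvk*, *Idi1*, *Nsdhl*, *Mbtps2* and *Npc1l1* held none. By state, 50.4% of the 131 PPARα sites of this list were called in both states and 34.4% in fasted liver only, and 20.7% of its 29 PPARδ sites were called in both, near the shares over all sites.

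By the sum of absolute differences in peak counts over the 7 lists, the gene most like *Scarb1* was *Zbtb16* (sum 8). Those most like *Insig1* were *Klf9* (3), *Pkdcc* (4) and *Acaa2* (5, a sum shared with 2 more genes). *Zbtb16*, for example, held 6 and 5 BCL6 peaks, 13 and 17 PPARα peaks and 8 and 3 PPARδ peaks in fed and fasted liver, and 12 floxed BCL6 peaks. These are likenesses of counts over 7 lists and carry no test.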

How the data were processed

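BCL6, PPARα and PPARδ were profiled by ChIP-seq in livers of fed and fasted mice. Per the labels and the study's methods, the authors mapped uniquely aligned reads to mm10 (Bowtie), found candidate peaks from the replicates together with HOMER, and retained those whose tags exceeded input across the replicates by DESeq2. Each of the 7 deposited lists gives peak positions alone (chromosome, start and end), and all peaks of a list have the same width (192 to 222 bp, depending on the list). Start and end were used as given.

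Genes and TSSs were taken from the RefSeq annotation of GRCm38 (the assembly of mm10), using each mRNA start of protein-coding genes. Peaks of the 6 C57BL/6 lists were joined by single linkage when centers lay within 200 bp, and a site belonged to a gene when any of its peaks was assigned to it. A floxed peak was matched to a site within 200 bp of any peak of that site. The DNA assigned to a gene was measured on a grid of 1000 bp. Both strands of 200 bp windows were searched for 5 consensus sequences. Joining, assignment and search were tested on simulated data. Python 3.11.15, SciPy 1.17.1, pysam 0.24.0 and Matplotlib 3.10.9 were used.

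The named genes are the 7 members, the genes of the 37-gene list with the most sites (up to 3, ties left unnamed) and those without a site, neighbors that hold a member's site or have the nearer TSS, marker genes of the tissue check, and up to 3 genes with the most similar peak counts for the 2 members with the most sites, of which the first alone is given for *Scarb1*, and 1 result of this kind is not reported here. The members and lists were chosen with earlier results of these data known. The other 38 samples were not analysed here.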

Additional observations from a re-analysis of the deposited data

How the results depend on the processing

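Of the 306 recomputed values, 255 stayed within 1.5 times the value reported, or, for the 14 shares without *Scarb1* (an alternative chosen after seeing the data), within its interval. A reach of 1 Mb, 1 TSS per gene, curated transcripts only, joining within 100 bp and joining overlapping intervals moved none of the counts they were applied to beyond that. Counting a peak only when its center lay in the gene moved the most, by construction. BCL6 peaks were then 10 (fed), 9 (fasted) and 18 (floxed), PPARα peaks 24 and 27 and PPARδ peaks 10 and 3 in fed and fasted liver. Sites were then 30 in all, BCL6 sites 5 in fed liver only and 5 in both states, PPARα sites 3 fed only, 21 both and 6 fasted only, PPARδ sites 7 fed only, 3 both and 0 fasted only, with 14 sites of BCL6 and PPARα, 10 of PPARα and PPARδ and 8 of all 3 factors. With a reach of 20 kb there were 7 PPARδ peaks in fasted liver, 4 fed-only PPARα sites and 1 fasted-only PPARδ site. Joining within 400 bp also gave 1 fasted-only PPARδ site. With the floxed list as fed BCL6, fed-only BCL6 sites were 18. A promoter of 5000 bp upstream to 1000 bp downstream held 13 sites.

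Windows of 50 and 100 bp held the BCL6 element at 1 and 1 site (1.59 and 1.59%, against 2.72 and 5.64% of all sites). DR1 was found at 2 and 5 (3.17 and 7.94%, against 4.32 and 8.82%). The FOXA sequence was found at 1 and 2 (1.59 and 3.17%, against 2.27 and 4.40%), below the share over all sites, unlike in windows of 200 bp. The C/EBP sequence was found at 3 and 7 (4.76 and 11.1%, against 6.73 and 12.5%). With 1 mismatch fewer the BCL6 element was found at 0 sites (0.996% of all sites) and DR1 at 3 (4.76%, against 3.17%). For single genes, a reach of 20 kb left *Insig1* with 3 sites, *Hmgcs1* with 4 and *Sqle* with 0.

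No paired analysis was possible because each group is 1 pooled list. Leaving out a replicate and a stricter peak threshold were not run, since the lists hold neither replicates nor scores. A list with few peaks, such as PPARδ in fasted liver, limits which sites can be called in both states, and differences in depth or enrichment between lists cannot be told apart from differences in binding.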
